A study of Mus musculus with 4 samples.

Results

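Respiratory complex I, the NADH dehydrogenase of the mitochondrial inner membrane, was examined through its nuclear genes in mouse embryonic stem cells (mESCs) that carried either of 2 forms of CTCF. CTCF is a zinc-finger protein that organizes chromatin loops, and residue T668 is one at which it can be modified by O-GlcNAc. The cells were a CTCF-mAID line, in which the endogenous CTCF is fused to a degron and can be removed by auxin. A vector supplied CTCF to these cells, and auxin was then used to degrade the endogenous protein. WT_CTCF cells received the wild-type protein, and MUT_CTCF cells received CTCF mutated at T668. Both groups shared the tagged endogenous allele, the auxin treatment, and culture on gelatin with 15% serum and LIF. The study picked a clone with near-endogenous exogenous CTCF for each line, so the genotype and the clone cannot be told apart. Each group had 2 RNA-seq libraries, described in the study's methods as biological replicates, and no age applies to a cell line.

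The genes were chosen by name, without use of any measured value: protein-coding rows of the count table whose symbol began with Ndufa, Ndufb, Ndufc, Ndufs, Ndufv, Ndufab or Ndufaf. Ndufa4, Ndufa4l2 and pseudogenes were left out. This gave 45 of 37620 rows, which held 44 gene symbols on 17 chromosomes, since Ndufb8 had 2 rows. The second Ndufb8 row had 0 reads in all 4 libraries, and its whole annotated transcript lay within exons of other rows, so it was not tested. All other 44 rows passed the filter on low counts and were tested among 16264 genes. The name matched 41 rows in the annotation itself and 4 through current RefSeq symbols, namely Ndufaf5, Ndufaf6, Ndufaf7 and Ndufaf8.

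Complex I takes electrons from NADH, passes them along a flavin and a chain of iron-sulfur clusters to ubiquinone, and pumps protons across the inner membrane. Its side arm, in the matrix, holds the redox centres, and its membrane arm holds the pumps, whose central subunits are encoded by mitochondrial DNA. Nuclear genes encode the core subunits of the side arm, many accessory subunits that surround the core, and assembly factors that build the complex and are not part of the finished enzyme. mESCs grown in serum and LIF rely strongly on glycolysis and also respire.

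The libraries held 40524694 to 40977464 counts each, and the summed complex I genes took 0.282% to 0.296% of them. The 9 mESC markers summed to 6231 to 6322 CPM (counts scaled to the library total), and Pou5f1 and Nanog, which define these cells, had 30797 to 33171 and 57886 to 60106 normalized counts per library. The 7 fibroblast markers summed to 22.3 and 23.6 CPM in WT_CTCF and 25.4 and 27.2 in MUT_CTCF. For the 6 primitive endoderm markers the sums were 9.94 and 9.71 against 10.9 and 16.4. For the 5 trophectoderm markers they were 17.3 and 15.0 against 11.9 and 12.5. By edgeR the 4 tested primitive endoderm markers were all positive, where 8267 of all 16264 tested genes were. Of these 4 markers, 2 were higher at an unadjusted p under 0.05, where 1238 of all tested genes were, and 0 at an adjusted p under 0.05. Among the fibroblast markers, Thy1 had 597 to 748 normalized counts per library and Col1a1 193 to 236, while Lum had 0. At an adjusted p under 0.05, Sox2 rose and Utf1 and Dppa5a fell among the mESC markers, and Cdx2 fell among those of trophectoderm. The part of these markers in the results was not tested. Ctcf itself, whose reads were not split between the endogenous and the supplied form, had 18302 and 18669 normalized counts in WT_CTCF and 18791 and 19325 in MUT_CTCF, with a log2 fold change of 0.044 ± 0.028 (SE) and an adjusted p of 0.499.

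Complex I genes spanned a wide range of levels. The level was taken as CPM (by TMM library size) per kilobase of reference transcript, and the median of the 44 genes was 51.4. Among the 43 genes reported singly, the highest level was that of Ndufa7, an accessory subunit of the side arm, with 211 ± 7.62 (SD, n = 2) in WT_CTCF and 210.1 ± 1.99 in MUT_CTCF. Ndufa10, an accessory subunit of the membrane arm that resembles nucleoside kinases, followed with 137 ± 0.18 and 135 ± 4.18. Ndufa7 lay above Ndufa10 in every library.

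The lowest levels were those of Ndufb2, Ndufaf4 and Ndufaf7. Ndufb2, an accessory subunit of the distal membrane arm, had a level of 4.75 ± 0.61 in WT_CTCF and 4.98 ± 0.69 in MUT_CTCF. Its transcript overlaps other genes: 50.3% of its bases also lie in exons of Adck2 on the same strand or Gm16272 on the other, and the part of this overlap in its low level was not tested. Ndufaf4, an assembly factor, had a level of 5.38 ± 0.23 and 5.58 ± 0.45, and Ndufaf7, an assembly factor with methyltransferase activity, had 5.91 ± 0.28 and 5.47 ± 0.10. The 3 genes overlapped in MUT_CTCF, and in WT_CTCF they stood in the order Ndufb2, Ndufaf4, Ndufaf7 without overlap. The 8 assembly factors had levels of 5.48 to 23.3 with a median of 15.2, against a median of 62.6 for the 36 subunits tested, and 6 core subunits lay between 56.0 and 135.

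**Figure D1:**
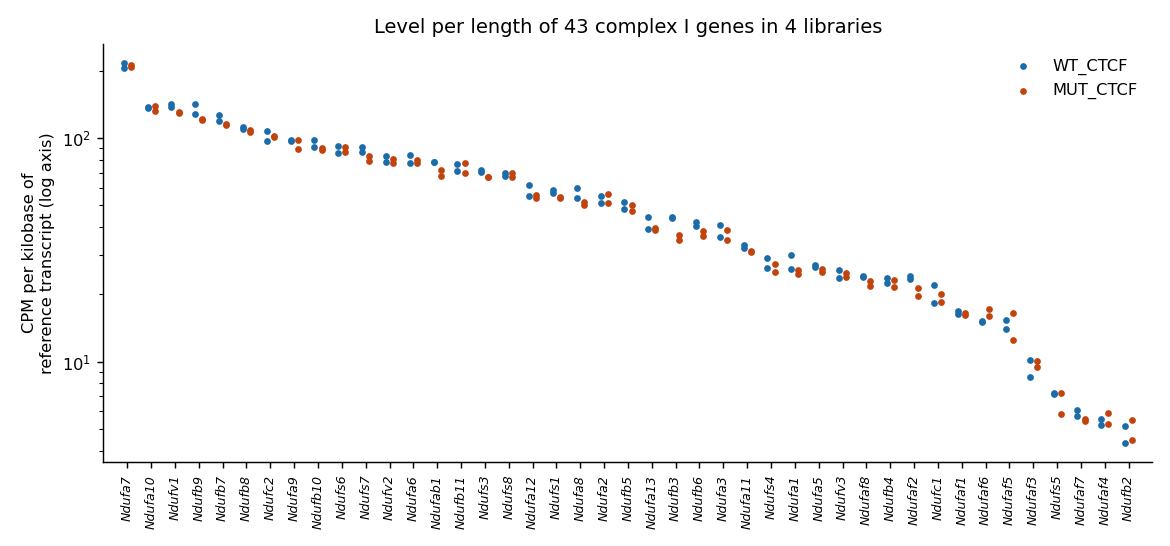
Level of 43 complex I genes, in CPM per kilobase of reference transcript on a log axis, with 1 point per library (blue, WT_CTCF; red, MUT_CTCF) and genes sorted by their mean. Levels ran from 211 for Ndufa7 to 4.86 for Ndufb2, and the libraries of both groups lay close together at each gene.

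Levels of some genes may depend on how uniquely their sequence maps, since the study counted uniquely mapped reads. This dependence was not tested. Of the 44 genes, 18 had windows of 50 bases, the shortest read kept, that also occur elsewhere in the genome. The share of such windows was 80% in Ndufs5, a small subunit of the membrane arm whose level was 7.21 ± 0.07 in WT_CTCF and 6.54 ± 1.03 in MUT_CTCF, 43.7% in Ndufab1, 43% in Ndufs3 and 41.3% in Ndufb4. With windows of 100 bases the shares were 66% in Ndufs5, 28% in Ndufab1, 27.5% in Ndufs3 and 38% in Ndufb4. The rank of these genes by level is therefore uncertain.

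The main question was whether complex I transcripts differed between MUT_CTCF and WT_CTCF. In edgeR's quasi-likelihood test with Benjamini-Hochberg adjustment over all genes, 2 of the 44 genes fell at an adjusted p under 0.05, Ndufb3 and Ndufab1, and 0 rose. In bulk samples, fewer cells of a type and less RNA per cell cannot be told apart. Across all genes tested, 1.61% passed as lower and 1.56% as higher, and 2 calls are too few to set complex I apart from that share. At an unadjusted p under 0.05, 7 complex I genes were lower and 0 higher. Of all 16264 genes tested, 1245 (7.65%) were lower and 1238 higher. DESeq2 called 0 complex I genes at an adjusted p under 0.05, where 158 of all genes fell and 128 rose. It had 5 complex I genes at an unadjusted p under 0.05, where 1466 of all genes were. DESeq2 gave 2 complex I genes no adjusted p. The exact test of edgeR called 3 complex I genes, the same pair and Ndufb9, where 247 of 16264 genes fell. With the study's own criterion of an unadjusted p under 0.05 and a fold change above 2, 0 complex I genes passed and 0.357% of all genes passed as lower.

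Ndufb3, an accessory subunit of the distal membrane arm at chr1:58643228-58652808 (mm9), had 1361 and 1383 normalized counts in WT_CTCF replicates 1 and 2, and 1142 and 1090.2 in the MUT_CTCF replicates. Both MUT_CTCF libraries lay below both WT_CTCF libraries, with group means of 1372 ± 15.6 and 1116 ± 36.7 (SD, n = 2). It fell by 0.298 ± 0.077 (SE) on the log2 scale, which is 0.813-fold, with an adjusted p of 0.0167. Of its 50-base windows, 14.6% also occur elsewhere in the genome, and of its 100-base windows 0% do.

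Ndufab1, the mitochondrial acyl carrier protein, serves both as a subunit of complex I and in mitochondrial fatty acid and lipoic acid synthesis, and lies at chr7:129228917-129245400 (mm9). It had 4531 and 4496 normalized counts in WT_CTCF and 3899 and 4171 in MUT_CTCF, again with no overlap between the groups. It fell by 0.162 ± 0.046 on the log2 scale, or 0.894-fold, with an adjusted p of 0.0357.

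Ndufb9, an accessory subunit of the distal membrane arm that belongs to the LYR protein family and binds the acyl carrier protein, lay just outside the threshold. It had 3787 and 3412 normalized counts in WT_CTCF and 3215 and 3183 in MUT_CTCF, with a log2 fold change of -0.170 ± 0.052 and an adjusted p of 0.0529. The difference between its WT_CTCF libraries was larger than the gap between the lower of them and the higher MUT_CTCF library.

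Neither call passed with a library left out, in fits on 3 libraries. With any 1 of the 4 libraries left out, a fit in which the lone library of a group is taken to vary like the other group, the adjusted p of Ndufb3 was 0.0986 to 0.477 and that of Ndufab1 was 0.162 to 0.508. The log2 fold changes were -0.332 to -0.266 for Ndufb3 and -0.212 to -0.114 for Ndufab1. Without either MUT_CTCF library, 0 genes of the whole table passed by edgeR, although 1651 genes had an unadjusted p under 0.05 without MUT_CTCF replicate 1 and 1585 without MUT_CTCF replicate 2. Without WT_CTCF replicate 2, Ndufb9 passed with an adjusted p of 0.0207 and a log2 fold change of -0.244, and without WT_CTCF replicate 1 it had a log2 fold change of -0.093.

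**Figure D2:**
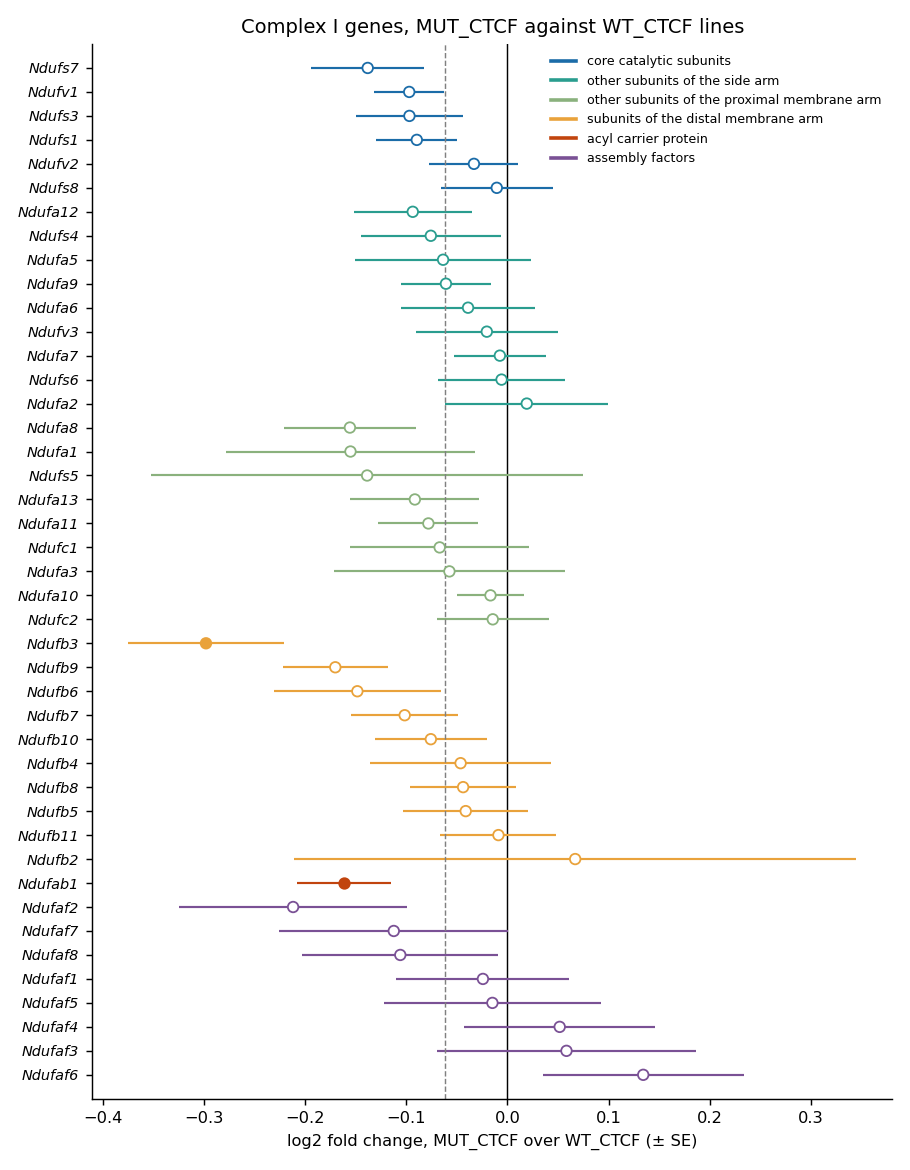
Log2 fold change (MUT_CTCF over WT_CTCF, horizontal axis) of 43 complex I genes with its SE, coloured by role and sorted within each role. Filled points passed an adjusted p under 0.05 (Ndufb3 and Ndufab1), open points did not, and the dashed line is the median of -0.062 over 44 genes.

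Most complex I genes had a small negative fold change. Of the 44 genes, 39 were below 0, where 49.2% of all tested genes were, and the median was -0.062, where that of all tested genes was 0.0034. When the libraries were scaled by their totals alone, 34 were below 0, and those that turned positive included Ndufs8, Ndufs6, Ndufa7 and Ndufb11. Only 2 genes, Ndufb3 and Ndufaf2, lay beyond 0.2 in either direction, and the median SE of a single gene was 0.065. Both MUT_CTCF libraries lay below both WT_CTCF libraries for 18 genes, where 22.3% of all genes did so, and above them for 1 gene, Ndufaf6, where 22.3% of all genes did so. The other 25 genes overlapped between the groups.

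The replicates within WT_CTCF differed among themselves by nearly as much. From WT_CTCF replicate 1 to replicate 2 the median log2 difference of the 44 genes was -0.049, with 30 genes lower in replicate 2, and between the MUT_CTCF replicates it was -0.016. The 4 pairs of a MUT_CTCF with a WT_CTCF library had medians of -0.067 and -0.098 against WT_CTCF replicate 1, and of -0.026 and -0.048 against WT_CTCF replicate 2. WT_CTCF replicate 1 was the highest library for 24 of the 44 genes. Without that library the median was -0.034 and 27 of the 44 genes were negative, and without any other single library the median was -0.079 to -0.073 and 34 to 39 genes were negative.

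**Figure D3:**
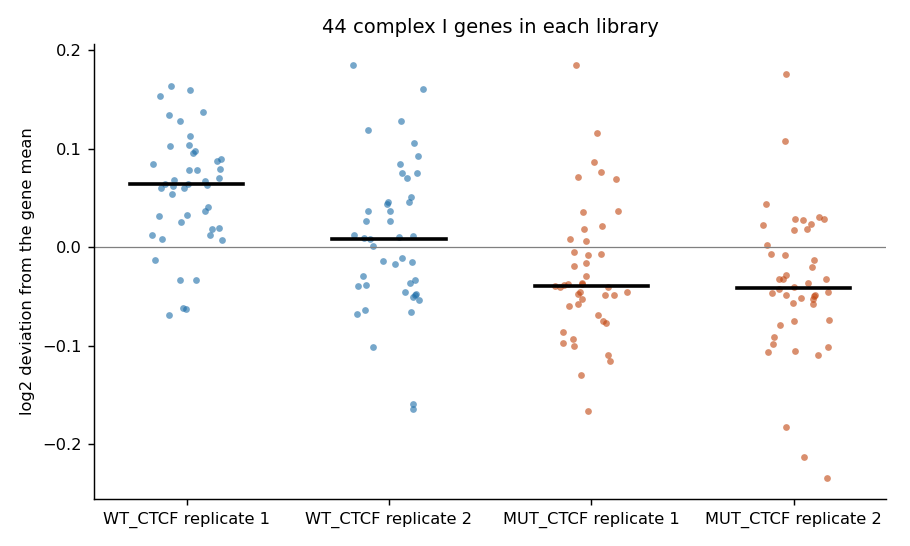
Deviation of each of the 44 complex I genes from its mean over the 4 libraries, on the log2 scale of normalized counts, with 1 point per gene and a black bar at the median of each library. The medians were 0.064 and 0.0086 in WT_CTCF replicates 1 and 2, and -0.039 and -0.041 in the MUT_CTCF replicates, with wide overlap of the points.

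The fold changes of all tested genes moved with transcript length, while the medians of the complex I genes were negative in each class that held any. Among all tested genes with a reference transcript under 700 bases, the median log2 fold change was -0.056 and 62.5% were negative, and the 14 complex I genes of this class had a median of -0.051. From 700 to 1000 bases the medians were -0.040 for 767 genes and -0.076 for the 9 complex I genes. From 1000 to 2000 bases they were -0.015 for 3736 genes and -0.051 for 16 complex I genes, and from 2000 to 4000 bases 0.010 for 5989 genes and -0.078 for 5 complex I genes. By level, above 3000 mean normalized counts 61.1% of 3111 genes were negative, as were all 12 complex I genes, and from 1000 to 3000 counts 54.3% of 3350 genes were negative, as were 17 of 18 complex I genes. From 100 to 1000 counts 42.9% of 5131 genes were negative, with a median of 0.034, where 10 of 13 complex I genes were, with a median of -0.057. The part of transcript length or level in the complex I values was not tested.

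**Figure D4:**
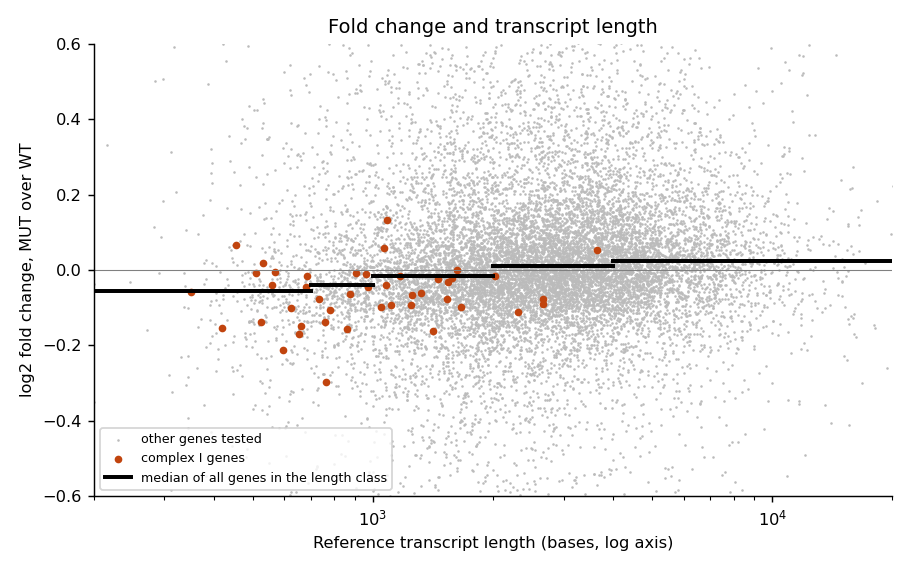
Log2 fold change (MUT_CTCF over WT_CTCF) against reference transcript length on a log axis, for complex I genes (red) and other tested genes (grey), with black bars at the median of all tested genes in each length class. Genes beyond 0.6 in either direction lie outside the axis, and the bars go from -0.056 for transcripts under 700 bases to 0.024 above 4000 bases.

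The 7 core subunits, which form the conserved redox part of the enzyme, all had negative fold changes, with a median of -0.090. By edgeR 0 passed an adjusted p under 0.05, and DESeq2 also called 0. At an unadjusted p under 0.05 in edgeR 3 were lower, where 7.65% of all tested genes were. Both MUT_CTCF libraries lay below both WT_CTCF libraries for 4 of the 7, where 22.3% of all tested genes did so. Ndufv1, which binds NADH and the flavin, had 9573 and 9292 normalized counts in WT_CTCF and 8825 and 8812 in MUT_CTCF, with a log2 fold change of -0.097 ± 0.035 and an adjusted p of 0.124. Its groups did not overlap. Ndufs7, which carries the last iron-sulfur cluster before ubiquinone, had 2686 and 2827 against 2561 and 2449, with a log2 fold change of -0.138 ± 0.056 and an adjusted p of 0.197.

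Ndufs1, the largest side-arm subunit, with several iron-sulfur clusters, had 6159 and 6382 normalized counts in WT_CTCF and 5923.5 and 5862 in MUT_CTCF, and Ndufs3, which lies near the base of the side arm, had 3067 and 3017 against 2844 and 2845. Neither gene overlapped between groups, and their log2 fold changes were -0.090 ± 0.040 with an adjusted p of 0.262 and -0.097 ± 0.053 with an adjusted p of 0.390. Both share bases with a gene on the opposite strand, 9.32% of the Ndufs1 transcript with Gm11602 and 8.41% of the Ndufs3 transcript with Kbtbd4. The strand setting of the counting is not given in the sources used here, so reads there cannot be told apart.

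The groups overlapped for the other core subunits. Ndufv2, which holds an iron-sulfur cluster beside the flavin subunit, had 5239 and 4921 normalized counts in WT_CTCF and 5085 and 4844 in MUT_CTCF, with a log2 fold change of -0.033 ± 0.044 and an adjusted p of 0.805. Ndufs8, which holds a pair of iron-sulfur clusters, had 2745 and 2668 against 2624 and 2750.1, with -0.011 ± 0.055 and an adjusted p of 0.961.

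For the 9 other side-arm subunits the log2 fold changes had a median of -0.039 and ranged from -0.094 to 0.019. None of the 9 passed by edgeR or DESeq2. In edgeR 0 had an unadjusted p under 0.05, where 1245 of all 16264 tested genes were lower and 1238 higher. The groups overlapped for 8 of the 9, where 9002 of all 16264 tested genes did so. Ndufa7, which had the highest level of these 9, had 4488 and 4265 normalized counts in WT_CTCF and 4383 and 4325 in MUT_CTCF, with a log2 fold change of -0.0075 ± 0.045 and an adjusted p of 0.968. Ndufa2, the only positive one, had a log2 fold change of 0.019 ± 0.081, and Ndufs4, a subunit whose loss causes Leigh syndrome, had -0.076 ± 0.069.

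The 9 other subunits of the proximal membrane arm were all negative, with a median of -0.078 and a range of -0.156 to -0.015. By edgeR and DESeq2 0 passed an adjusted p under 0.05. At an unadjusted p under 0.05 in edgeR, where 7.65% of all tested genes were lower, 1 of the 9 was lower. This was Ndufa8, a subunit of the intermembrane space side, with 2100.3 and 1889 normalized counts in WT_CTCF and 1826 and 1755 in MUT_CTCF, a log2 fold change of -0.156 ± 0.066 and an adjusted p of 0.222. Ndufa10, one of the genes with the highest levels, had 11279 and 11300 against 10915 and 11402, with -0.017 ± 0.033 and an adjusted p of 0.880. Ndufs5, with few reads, had 153 and 155 against 156 and 125.

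Among the 11 rows of the distal membrane arm, 10 were tested, with a median of -0.061, 9 negative, where 49.2% of all tested genes were, and 6 below WT_CTCF in both MUT_CTCF libraries, where 22.3% of all tested genes were. Ndufb3 was the only one to pass. The exception in sign was Ndufb2, with 96.2 and 80.2 normalized counts in WT_CTCF and 83.3 and 101 in MUT_CTCF, a log2 fold change of 0.067 ± 0.278 and an adjusted p of 0.949. These groups overlapped, and the SE was the largest of the 44 genes. The tested Ndufb8 row had 3097 and 3056 against 3014 and 2955, with -0.044 ± 0.052 and an adjusted p of 0.777.

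The 8 assembly factors had a median of -0.020, with 5 negative and 3 positive, and by edgeR and DESeq2 0 passed. In edgeR 0 had an unadjusted p under 0.05, where 1245 of all 16264 tested genes were lower and 1238 higher. Ndufaf2, a chaperone that is replaced by Ndufa12 late in assembly, had 570 and 587 normalized counts in WT_CTCF and 479 and 520.5 in MUT_CTCF, with a log2 fold change of -0.212 ± 0.113 and an adjusted p of 0.375. Its groups did not overlap. Ndufaf6, a factor needed for early steps of assembly, was the gene with both MUT_CTCF libraries above WT_CTCF, at 667 and 670 against 758 and 708, with 0.134 ± 0.099 and an adjusted p of 0.585.

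Ndufaf3, which acts with Ndufaf4 on an early module of the side arm, had 444 and 372 normalized counts in WT_CTCF and 436 and 413 in MUT_CTCF, and Ndufaf4 had 821 and 774 against 779 and 874. Their log2 fold changes were 0.058 ± 0.128 with an adjusted p of 0.897 and 0.052 ± 0.094 with an adjusted p of 0.870, and both overlapped between groups. Ndufaf7 had 574 and 537 against 520.5 and 507, with -0.112 ± 0.113 and an adjusted p of 0.718. The 13 tested genes of 14 further assembly factors outside the naming rule, such as Acad9 and Ecsit, had a median of -0.043. By edgeR 0 of them passed or had an unadjusted p under 0.05, where 1245 of all 16264 tested genes were lower and 1238 higher.

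The 7 subunits of complex I that mitochondrial DNA encodes are the central subunits of the membrane arm. Of these, 6 had a positive fold change, and 2 rose at an adjusted p under 0.05, where 1.56% of all tested genes rose. The positive genes include mt-Nd4l, and the negative one is mt-Nd3, both with few reads. mt-Nd5, the distal proton pump, had 26750.4 and 26823 normalized counts in WT_CTCF and 32714 and 30855 in MUT_CTCF. Its MUT_CTCF libraries lay above both WT_CTCF libraries, with a log2 fold change of 0.247 ± 0.026 and an adjusted p of 4.4e-10. mt-Nd6, the only protein-coding gene on its strand of mitochondrial DNA, had 5156 and 5156 against 6057 and 5519, with 0.167 ± 0.043 and an adjusted p of 0.0171. mt-Nd4 had 34715 and 34650.2 against 36627 and 36588, with 0.078 ± 0.024 and an adjusted p of 0.0585, while mt-Nd1 and mt-Nd2 overlapped between groups at 0.015 ± 0.024 and 0.053 ± 0.025.

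mt-Nd3 and mt-Nd4l, at 8.04 to 27.1 normalized counts, had too few reads to be read. Of their 50-base windows, 99% and 100% also occur elsewhere in the genome, as did 62.2% of those of mt-Nd4, 7.61% of those of mt-Nd5 and 0% of those of mt-Nd6. The counts of mitochondrial and nuclear subunits come from the same libraries and share their scaling, and mt-Nd5 and mt-Nd6 lie on opposite strands with overlapping ends, so reads there cannot be told apart without strand.

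**Figure D5:**
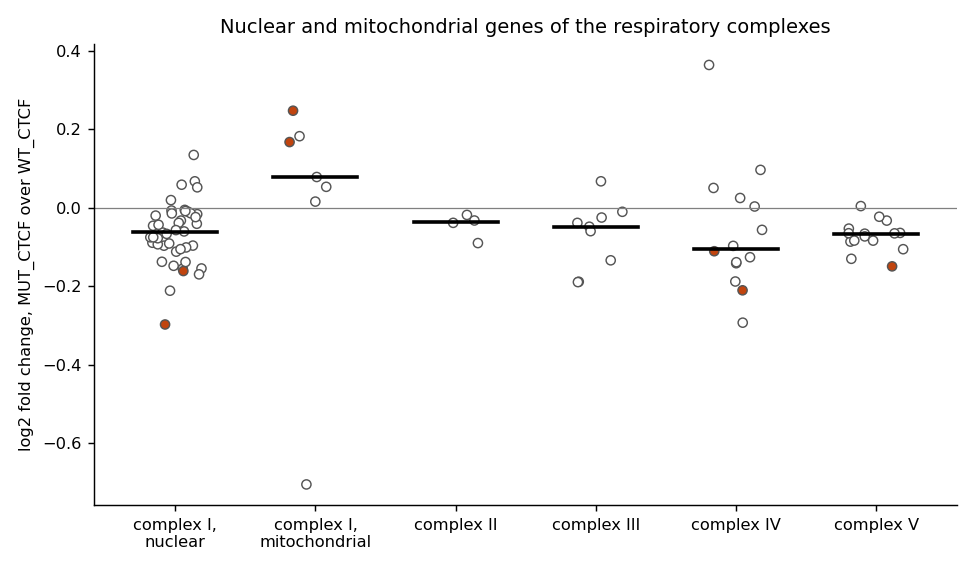
Log2 fold change (MUT_CTCF over WT_CTCF) of each tested gene of the respiratory complexes, with filled points for an adjusted p under 0.05 and a black bar at each median. The nuclear complex I genes, of which 43 are drawn, had a median of -0.062 over 44, the mitochondrially encoded ones 0.078, and complexes II, III, IV and V -0.036, -0.049, -0.104 and -0.066. The mitochondrial median includes mt-Nd3 and mt-Nd4l, which had few reads.

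The nuclear subunits of the other respiratory complexes also had mostly negative values. Of 42 tested genes of complexes II to V, 35 were negative and the median was -0.066. By edgeR 3 fell and 0 rose at an adjusted p under 0.05, where 1.61% of all genes fell and 1.56% rose. At an unadjusted p under 0.05, 15 were lower and 0 higher, where 1245 (7.65%) of all 16264 genes were lower and 1238 higher. The genes that fell were Cox4i1 and Cox7b of cytochrome c oxidase and Atp5g1 of ATP synthase. Between the WT_CTCF replicates these 42 genes differed by a median of -0.025, and between the MUT_CTCF replicates by -0.035. No difference between complex I and the other complexes was tested.

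The 2 genes that carry the Nduf name and were left out both passed the test. Ndufa4, now known as a subunit of cytochrome c oxidase, had 4470.1 and 4251 normalized counts in WT_CTCF and 3824 and 3927 in MUT_CTCF, and it fell by 0.170 ± 0.047 on the log2 scale with an adjusted p of 0.0273. Ndufa4l2, a hypoxia-induced relative of Ndufa4, had 78.1 and 75.2 against 290.5 and 282, and rose by 1.90 ± 0.20.

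Of 13 nuclear regulators of respiratory genes, 11 were tested, and by edgeR 0 passed. At an unadjusted p under 0.05 there were 0, where 1245 of all 16264 tested genes were lower and 1238 higher. Nrf1, a factor that binds many respiratory promoters, had 4088 and 4061 normalized counts in WT_CTCF and 4069 and 4062 in MUT_CTCF, with a log2 fold change of -0.0032 ± 0.046. Gabpa, Esrra and Yy1 had log2 fold changes of 0.049 ± 0.061, 0.072 ± 0.071 and -0.073 ± 0.046. Ppargc1a and Esrrg had too few reads to be tested.

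The promoters of complex I genes were searched for letters known to be bound by these factors: NRF1 (GCGCANGCG), ETS factors such as GABPA (CCGGAAG), YY1 (AAGATGGC) and ERR receptors (AAGGTCA), on both strands, from 250 bases before to 50 after the RefSeq start (GRCm38.p6). A sequence was found for 39 of the 44 symbols. The NRF1 letters occurred in 10 of the 39 genes (25.6%), where 11.7% of the promoters of tested genes held them. The YY1 letters occurred in 8 genes (20.5%) against 3.78%, the ETS letters in 6 (15.4%) against 15.2%, and the ERR letters in 3 (7.69%) against 3.44%. At least 1 of the 4 occurred in 23 genes (59.0%), where 29.7% of the promoters of tested genes had one. The NRF1 letters read nearly the same on both strands, so some matches overlap.

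The promoters of the genes that fell and of 2 genes with several matches are shown, each as the 250 bases before the start, 5′ to 3′ on the gene's strand, with matches in capitals. They are Ndufb3 at chr1:58586147-58586396 (plus strand), Ndufab1 at chr7:122101849-122102098 (minus strand), Ndufa8 at chr2:36049339-36049588 (minus strand) and Ndufb4 at chr16:37654369-37654618 (minus strand), all in GRCm38.p6.
Ndufb3: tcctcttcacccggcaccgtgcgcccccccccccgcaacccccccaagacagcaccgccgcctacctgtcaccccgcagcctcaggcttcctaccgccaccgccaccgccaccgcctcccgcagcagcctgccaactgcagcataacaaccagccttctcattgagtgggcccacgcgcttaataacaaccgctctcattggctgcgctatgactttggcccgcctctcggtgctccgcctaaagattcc
Ndufab1: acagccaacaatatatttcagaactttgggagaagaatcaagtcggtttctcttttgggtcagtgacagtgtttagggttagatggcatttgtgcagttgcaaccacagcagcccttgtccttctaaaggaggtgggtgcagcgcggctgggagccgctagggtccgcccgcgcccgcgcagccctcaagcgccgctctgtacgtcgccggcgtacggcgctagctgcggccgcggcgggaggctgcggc
Ndufa8: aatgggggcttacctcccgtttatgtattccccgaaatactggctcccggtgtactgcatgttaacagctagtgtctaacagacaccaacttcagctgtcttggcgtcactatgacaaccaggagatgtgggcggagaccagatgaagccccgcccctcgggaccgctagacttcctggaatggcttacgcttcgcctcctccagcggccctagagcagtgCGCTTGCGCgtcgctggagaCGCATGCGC
Ndufb4: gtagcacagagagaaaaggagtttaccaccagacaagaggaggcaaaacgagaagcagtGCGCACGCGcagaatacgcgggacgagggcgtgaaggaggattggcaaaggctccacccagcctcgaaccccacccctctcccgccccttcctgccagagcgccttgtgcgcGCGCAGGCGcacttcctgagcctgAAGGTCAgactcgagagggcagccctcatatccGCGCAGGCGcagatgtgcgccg
Neither Ndufb3 nor Ndufab1 had a match in this window. Ndufa8 had the NRF1 letters at 2 places, and Ndufb4, an accessory subunit of the distal membrane arm, had them at 3 places together with the ERR letters. The median log2 fold change between MUT_CTCF and WT_CTCF was -0.055 for the 10 genes with the NRF1 letters and -0.067 for the 29 without, and -0.064 for the 8 genes with the YY1 letters and for the 31 without. It was -0.099 for the 6 genes with the ETS letters and -0.061 for the 33 without, and -0.046 for the 3 genes with the ERR letters and -0.065 for the 36 without. These differences were not tested. Ndufb4 had 939 and 888 normalized counts in WT_CTCF and 854 and 916 in MUT_CTCF, with overlap between the groups and a log2 fold change of -0.046 ± 0.089.

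Among all tested genes, 262 fell and 253 rose at an adjusted p under 0.05. When the libraries were scaled by their totals alone the split was 152 to 260 and 1 complex I gene, Ndufb3, fell.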

How the data were processed

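RNA was sequenced from 2 WT_CTCF and 2 MUT_CTCF mESC libraries. As the methods and submitters' processing notes state, the authors trimmed reads with Trim Galore (0.4.4), aligned them to mm9 with STAR and counted uniquely mapped reads per gene with HTSeq (0.9.1). The annotation release and strand setting are not given in the sources used here. The deposited values used were these raw counts. The deposited edgeR table of the authors' comparisons (fold changes and p-values) was not used.

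Counts were tested with edgeR 4.0.16 (TMM scaling, filterByExpr with a minimum count of 10, glmQLFit and glmQLFTest, two-sided, 2 against 2), with Benjamini-Hochberg adjustment over 16264 genes. The scripts were tested on simulated data. SE is the log2 fold change over the root of F. Normalized counts are counts scaled by TMM library size. Level per kilobase used the shortest coding transcript with the longest coding sequence (GENCODE vM1, NCBIM37). R was 4.3.3, DESeq2 1.42.0 and Python 3.11.15. With 2 libraries a group, p-values measure only the spread between these samples, and outlier tests were not possible.

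The genes and lists were chosen with earlier results of these data known. Genes named are those with an adjusted p under 0.05, the 7 core subunits, the 3 highest and 3 lowest levels, the 3 largest rises and falls among genes with at least 100 mean normalized counts, and the untested row. Of the core subunits 1 is in the tests, counts and medians but is not reported here by itself. Ndufa8, Ndufa2, Ndufs4, Ndufs5, Ndufs6, Ndufb4, Ndufb11 and genes of other lists were named after their values were seen. Promoter sequences are from RefSeq. Alternatives were DESeq2, the exact test, other scaling, other filters, a replicate block, each library left out, the study's criterion and narrower choices of genes. Counting intervals and floors were not needed, since every tested gene had reads in all libraries.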

Additional observations from a re-analysis of the deposited data

How the results depend on the processing

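The number of complex I genes that fell was 2 in the main fit, where 262 of all 16264 tested genes fell. It was 0 with DESeq2, where 158 of all genes fell. Without a filter on low counts it was 0, where 3 of 23739 genes fell and 26 rose (the cause was not tested). With the study's criterion it was 0, where 0.357% of all genes passed as lower. Among the 22 genes that share no exon or 50-base window with another place it was 0, which leaves out both called genes. It was 1 with library totals alone, where 152 of 16264 genes fell. It was 3 with the exact test, where 247 of 16264 genes fell. With DESeq2's size factors it was 3, where 272 of 16264 genes fell. With at least 10 reads in every library it was 3, where 300 of 14990 genes fell. The count of complex I genes that rose was 0 in every alternative run on all 4 libraries. The median of -0.062 was -0.034 without WT_CTCF replicate 1, and -0.079 to -0.034 over the 4 libraries left out. The 39 negative genes of 44 were 19 of 22 without shared exons or windows. The alternative without Ndufaf5 to Ndufaf8 was chosen after the data were seen and gave 2 calls and a median of -0.062.

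Of the named genes, Ndufs8 became 0.0018 and Ndufa7 0.0049 with library totals alone. With a library left out, fold changes that reversed ranged from -0.079 to 0.012 for Ndufv2, -0.046 to 0.023 for Ndufs8, -0.045 to 0.029 for Ndufa7, -0.050 to 0.014 for Ndufa10, -0.035 to 0.132 for Ndufaf4, -0.084 to 0.203 for Ndufb2 and -0.065 to 0.191 for Ndufaf3. The cause was not tested, and none of these genes passed the test in any alternative.

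Deviations of same-numbered libraries correlated at -0.019 over all tested genes. This correlation over genes does not settle whether the replicate numbers pair the samples, and a shared batch was not tested. With the replicate number as a block, 372 of all tested genes fell and 326 rose, against 262 and 253 without it. Of the complex I genes 3 fell and 0 rose in that fit, the median was -0.063 and 39 were negative.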
